A study of Mus musculus with 4 samples.

Results

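Binding of the glucocorticoid receptor (GR) was examined around 9 metabolic genes that respond to glucocorticoids: Ampd3, Glul, Angptl4, Pdk4, Hif3a, Suox, Mt1, Mt2 and Tgm2. Their sites were all peaks whose centre lay inside the gene's RefSeq span or within 100 kb of it. By this rule 30 sites were found, out of 6085 in the treated lists. Mt1 and Mt2 are neighbours and share their 6 sites, so the 9 genes form 8 loci. GR was measured by ChIP-seq, the sequencing of DNA that comes down with the receptor in an immunoprecipitation, in the mouse line 33AP1C9, whose parental line, C127, is of mammary epithelial origin. All libraries come from this line, which carries an MMTV-pp7 reporter integrated in its genome and expresses PP7 coat protein tagged with GFP. Cells were kept in serum stripped of steroids and were then either untreated or given corticosterone at 600 nM, over 1 h or 12 h. Each condition had 1 library. The labels give a different catalogue number for the second antibody of each library, so antibody and treatment time cannot be told apart if those numbers hold. Gene expression was not measured, so neither the level of these genes nor the mammary label could be checked against RNA.

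GR is held in the cytoplasm until a glucocorticoid such as corticosterone, the main one of rodents, binds it. It then enters the nucleus and binds DNA, often as a dimer on a palindromic element with a short spacer. In liver, muscle and fat, glucocorticoids shift fuel use: they spare glucose, release fatty acids and amino acids, and raise metallothioneins. Ampd3 encodes an AMP deaminase, which turns AMP into IMP. Glul encodes glutamine synthetase, and Pdk4 a kinase that switches off the pyruvate dehydrogenase complex. Angptl4 is a secreted inhibitor of lipoprotein lipase, and Hif3a a member of the hypoxia-inducible factor family. Suox is the mitochondrial sulphite oxidase, Mt1 and Mt2 are small cysteine-rich proteins that bind zinc and other metals, and Tgm2 is a calcium-dependent enzyme that crosslinks proteins at glutamine residues.

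A peak overlapped a promoter at 2 of the 6 loci whose promoters could be examined. RefSeq promoter windows of GRCm38.p6, each running from 250 bases before to 50 bases after a transcription start, were found for 7 of the 9 genes and number 9, since Ampd3 has 3 starts. Angptl4 and Tgm2 had no entry, so their starts were not examined. At both times a peak overlapped 2 of these 9 windows, that of Mt1 and that of the third Ampd3 start, whereas over all 32851 windows a 12 h peak overlapped 0.158% and a 1 h peak 0.304%. The 2 overlapped windows are shown first, then the window of Mt2, whose nearest peak lay outside it, and that of Suox, which was one of only 2 member windows with a match to the receptor element. All run 5′ to 3′ on the strand of the gene, in lower case, with the motif matches in capitals.

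Mt1 (chr8:94178839-94179138, plus strand): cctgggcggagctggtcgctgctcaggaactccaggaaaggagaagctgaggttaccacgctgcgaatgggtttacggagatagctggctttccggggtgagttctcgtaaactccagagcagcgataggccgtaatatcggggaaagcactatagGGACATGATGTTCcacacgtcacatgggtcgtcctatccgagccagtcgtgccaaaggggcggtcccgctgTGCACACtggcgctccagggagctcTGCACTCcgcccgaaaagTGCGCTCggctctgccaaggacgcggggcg

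Ampd3, the third start (chr7:110773386-110773685, plus strand): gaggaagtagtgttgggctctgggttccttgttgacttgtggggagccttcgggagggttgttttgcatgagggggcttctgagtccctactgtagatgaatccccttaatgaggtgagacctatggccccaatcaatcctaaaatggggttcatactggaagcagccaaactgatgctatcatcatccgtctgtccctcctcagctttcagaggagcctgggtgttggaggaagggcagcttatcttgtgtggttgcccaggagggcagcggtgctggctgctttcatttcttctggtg

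Mt2 (chr8:94172368-94172667, plus strand): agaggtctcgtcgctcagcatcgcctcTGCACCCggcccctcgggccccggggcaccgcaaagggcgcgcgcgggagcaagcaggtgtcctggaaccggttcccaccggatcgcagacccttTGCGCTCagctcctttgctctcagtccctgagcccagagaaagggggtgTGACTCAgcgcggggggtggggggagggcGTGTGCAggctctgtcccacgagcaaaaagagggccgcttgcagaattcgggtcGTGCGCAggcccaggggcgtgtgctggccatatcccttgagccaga

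Suox (chr10:128673869-128674168, minus strand): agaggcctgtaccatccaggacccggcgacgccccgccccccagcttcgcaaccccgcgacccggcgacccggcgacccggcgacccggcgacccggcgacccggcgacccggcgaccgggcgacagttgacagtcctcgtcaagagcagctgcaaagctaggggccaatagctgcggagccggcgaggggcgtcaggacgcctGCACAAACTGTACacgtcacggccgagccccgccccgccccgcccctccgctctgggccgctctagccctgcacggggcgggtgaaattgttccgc

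Motifs were searched on both strands. The relaxed form of the receptor's dimer element is GNACA, any 3 bases and TGTNC. The full form is AGAACA, any 3 bases and TGTTCT, and contains the relaxed one. TGTTCT alone, the hexamer that ends the full form, was searched as well. TGACTCA is the AP-1 element, and TGCACNC and TGCGCNC are forms of the element bound by the metal-responsive factor. The relaxed dimer element was found in the windows of Mt1 (GGACATGATGTTC) and Suox (GCACAAACTGTAC), 2 of 9 member windows. It occurs in 0.475% of all windows and in 16 of the 100 windows that a 1 h peak overlapped. In Mt1 it starts 94 bases before the transcription start, at 94178995 to 94179007, which lies inside the peak at both times. In Suox it starts 46 bases before the start, and the listed Suox peak did not reach it. The full form and the single hexamer had no match in any of the 9 windows, against 0.00913% and 19% of all windows. The metal element had 3 matches in the Mt1 window and 4 in that of Mt2, and 1 each in the Glul and Hif3a windows. Its forms occur in 12.6% (TGCACNC) and 15.4% (TGCGCNC) of all windows. The AP-1 element was in the Mt2 window and in that of the second Ampd3 start, and in 5.2% of all windows. The window of the third Ampd3 start held none of these letters. The 12 h peak covered 188 of its bases and the 1 h peak 138, and the rest of each peak was not searched. A match describes the letters only, and sequence under the peaks elsewhere was not used here.

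A GR site was listed for 7 of the 9 genes at 12 h, all but Angptl4 and Suox, and for all 9 at 1 h. Of 21887 protein-coding genes 22.3% had a 12 h peak at this distance and 37.4% a 1 h peak. The genes were chosen as glucocorticoid targets with results of these data known, so the difference from those shares is no test. The lists held 17 of the 30 sites at 12 h and 29 at 1 h, with 16 in both, 13 in the 1 h list alone and 1 in the 12 h list alone. The 16 shared sites are 94.1% of the 12 h sites and 55.2% of the 1 h sites, against 84.5% and 43.2% of all peaks. Inside the gene spans lay 9 sites and outside them 21. For 19 sites a member was the nearest protein-coding gene, and for 11 it was another gene.

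The unit below is the authors' normalised tag count in the peak window, scaled to a library of 10000000 tags. The libraries held 79203826 tags untreated, 90556119 at 1 h and 97749688 at 12 h. The untreated library served as control for each treated list, and listing required at least 6 times its tags. For a site in a single list, the tags needed in the other were worked out from this fold alone. They use the untreated tags in the listed window, although window sizes differ between the lists. The untreated list held 1 peak in all, which did not lie within 100 kb of any member. At the member sites untreated cells gave 5 to 30 raw tags in the 12 h windows, with a median of 11, and 5 to 28 in the 1 h windows, with a median of 12. The average untreated tags per base would give 11.6 and 10.8. Ratios are log2 of 12 h over 1 h, with a Clopper-Pearson 95% interval from whole tags. This interval covers counting error only and takes each tag as independent. With 1 library per condition they compare 2 libraries, and no test across conditions is possible.

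**Figure D1:**
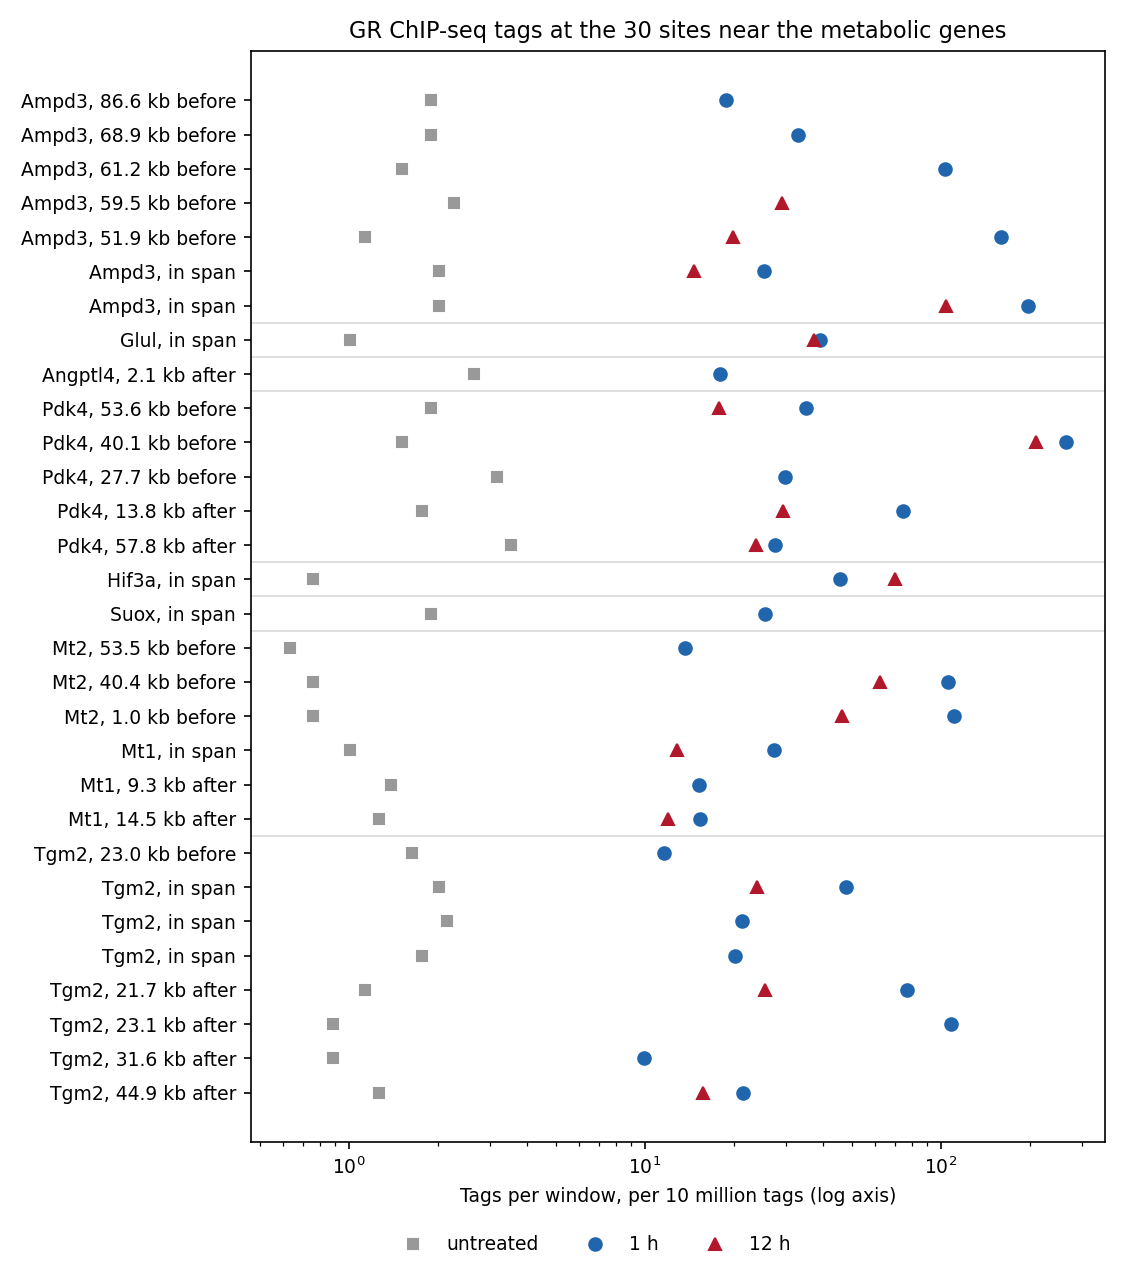
Normalised tags (log axis) at each of the 30 sites, with a square for the untreated library in the same window, a circle for 1 h and a triangle for 12 h; a missing symbol means that the site was not in that list. Labels give the distance from the gene span, before or after it by chromosome coordinate. All treated values stand right of the untreated ones, as the listing rule requires, and the Hif3a triangle alone lies right of its circle at the authors' scaling.

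At Ampd3 the strongest site at both times lay inside the gene, 9.64 kb after the third start. Of the 5 sites upstream of the gene, 2 were listed at 12 h, with 19.9 and 29.0 tags, where the median of all 12 h peaks was 18.0. Ampd3 (plus strand, chromosome 7, 110767790 to 110812409) had 7 sites spread over 102 kb, 4 of them listed at 12 h and 6 at 1 h. That strongest site (110783136 to 110783418) held 104 tags at 12 h, against 196 at 1 h. Its log2 ratio was -0.91 (-1.03 to -0.80), and untreated cells gave 17 and 16 raw tags in its 12 h and 1 h windows.

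The upstream site 51.9 kb before the gene (110715785 to 110716067 at 1 h) held 19.9 tags at 12 h, against 159 at 1 h. This is 195 raw tags at 12 h, against 1443 at 1 h. The log2 ratio of -3.00 (-3.22 to -2.78) was the lowest of all 2436 sites in both lists, a 7.99-fold difference. The 12 h peak was also centred 71 bp away from the 1 h peak, with 221 bp of overlap. Its fold over the surrounding 10 kb was 6.92 at 12 h and 32.3 at 1 h, where listing needs at least 6. The 2 Ampd3 intervals, inside the gene and upstream, do not overlap. If each tag is independent, their ratios thus differed by more than counting error in these libraries. Whether repeated tags were copies of the same fragment was not tested.

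The next upstream site, 61.2 kb before the gene (110706442 to 110706724), held 103 tags at 1 h and was not listed at 12 h. For the required fold over untreated cells it would have needed 9.09 tags at 12 h. It could also have failed the caller's tag threshold or its local fold, for which no 12 h value is given. A peak listed at 12 h alone lay 1753 bp from it, 59.5 kb before the gene (110708185 to 110708487), with 29.0 tags. Its local fold was 7.53, and 13.6 tags would have been needed there at 1 h. A pair of weaker sites further upstream, at 68.9 and 86.6 kb, held 32.9 and 18.8 tags at 1 h and were not listed at 12 h. The farthest of them lies nearer to Adm, the gene of the vasodilator peptide adrenomedullin, than to Ampd3. The site over the third Ampd3 start, centred 53 bp after it at 1 h, held 14.7 tags at 12 h, against 25.3 at 1 h (log2 ratio -0.78, -1.09 to -0.47).

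**Figure D2:**
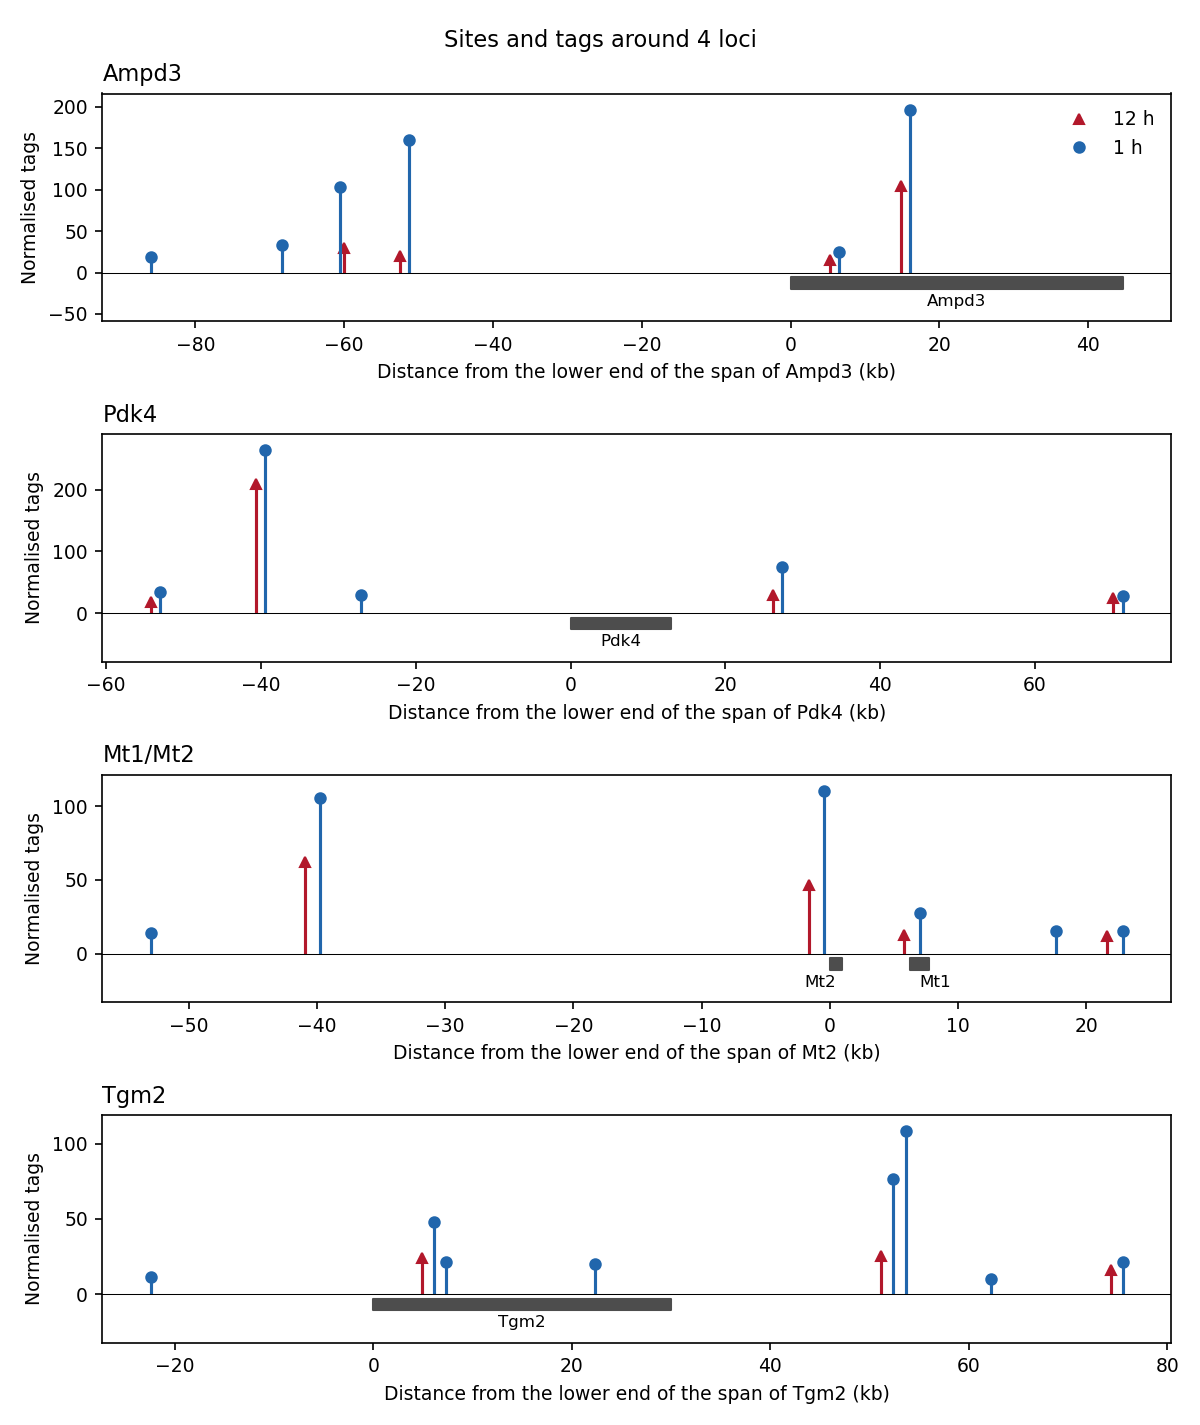
Normalised tags of each site at 12 h (triangles) and 1 h (circles) against distance in kb from the lower-coordinate end of the gene span (of Mt2 in the metallothionein panel), with gene spans as grey bars; stems are drawn 0.6 kb to either side of the centre so that both can be seen. Upstream of Ampd3 the tallest 12 h stem reaches 29.0 tags and the tallest 1 h stem 159, while inside the gene they reach 104 and 196.

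Glul held nearly equal tags in both libraries as scaled by the authors, while its log2 ratio was 0.42 relative to the median of all shared sites. Its only site lay inside the gene, 1.69 kb after the start (chromosome 1, 153901481 to 153901763), and held 37.2 tags at 12 h, against 39.1 at 1 h. The log2 ratio was -0.07 (-0.29 to 0.15), an interval that includes no difference and that does not reach the median of all shared sites, -0.49. The untreated library held 10 and 8 raw tags in the 12 h and 1 h windows. No other peak lay within 100 kb, and the next one at 1 h was 248 kb away.

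The genes of fuel choice differed in how many sites they had. Pdk4 (minus strand, chromosome 6, 5483351 to 5496278) had no site inside its span but 5 around it, 4 of them in both lists. The strongest site of all 30 (5443146 to 5443428) lay on the downstream side, 40.1 kb from Pdk4 and nearer to Asb4, the gene of an ankyrin repeat protein. It held 209.7 tags at 12 h, against 264.5 at 1 h, a log2 ratio of -0.33 (-0.42 to -0.25). Upstream, the site 13.8 kb before the Pdk4 start (5509967 to 5510249) held 29.2 tags at 12 h, against 74.2 at 1 h, with a log2 ratio of -1.35 (-1.55 to -1.15). It is the stronger of the sites for which Pdk4 is the nearest gene.

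Of the remaining Pdk4 sites, the one 57.8 kb upstream held 23.8 tags at 12 h, against 27.5 at 1 h (-0.21, -0.47 to 0.06). In that window untreated cells gave 30 raw tags over the 12 h window and 28 over the 1 h window, the highest of the 30 sites. The fold over them was 6.29 at 12 h and 7.78 at 1 h. The site inside Asb4, 53.6 kb away, held 17.8 tags at 12 h, against 34.9 at 1 h (-0.97, -1.25 to -0.70). The site 27.7 kb downstream was in the 1 h list alone with 29.8 tags, over 25 raw tags in the untreated library.

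Angptl4 had 1 site, 2.09 kb from its span on the side of the higher coordinate (chromosome 17, 33783528 to 33783810), and it was listed at 1 h alone with 18.0 tags. The untreated library held 21 raw tags there, so the fold over it was 6.79, close to the minimum of 6. At 12 h it would have needed 15.9 tags for the required fold over untreated cells, and no 12 h value is given.

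Hif3a had the only shared member site with more tags in the 12 h library as scaled by the authors. Its ratio was above 0 under the 3 other scalings as well. Its site lay inside the gene, 4.09 kb after the start (minus strand, chromosome 7, 17058193 to 17058475), and held 69.9 tags at 12 h, against 45.7 at 1 h. The log2 ratio was 0.61 (0.43 to 0.79), the 108th highest of 2436 shared sites, of which 22.8% had more tags at 12 h and 4.8% at least 1.5 times as many. Untreated cells gave 6 raw tags in the window of each list. It was 0.51 per base of the window, 1.11 relative to the median of all shared sites and 1.66 scaled by the tags in listed peaks.

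Suox had 1 site, inside the gene and 1.61 kb after the start (minus strand, chromosome 10, 128672169 to 128672451), listed at 1 h alone with 25.5 tags. The fold over the untreated library was 13.5 and over the surrounding region 10.5. At 12 h it would have needed 11.4 tags to pass the first of these minimums. The promoter window with the receptor element, shown above, lies outside this peak.

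The metallothionein genes had 6 sites over 75.8 kb, of which the one just upstream of Mt2 and one further away were the strongest. A pair of glucocorticoid response elements upstream of mouse Mt2 is known from transgenic mice to act on both genes. The site upstream of Mt2, 1014 bp before its start and 7.28 kb before Mt1 (chromosome 8, 94171463 to 94171745), held 46.2 tags at 12 h, against 110.5 at 1 h. The log2 ratio was -1.26 (-1.42 to -1.10), and untreated cells gave 6 raw tags in each window. The site 40.4 kb before Mt2, which lies 4.94 kb from Mt4, a metallothionein gene of stratified epithelia, held 62.3 tags at 12 h, against 106 at 1 h. Its log2 ratio was -0.76 (-0.91 to -0.62), an interval that does not overlap the one upstream of Mt2. In the 12 h library the farther site held more tags of these 2. In the 1 h library the nearer one held slightly more, 1001 raw tags against 958, and this difference was not tested.

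The site over the Mt1 start, whose sequence is shown above, was weaker. It held 12.8 tags at 12 h (94178832 to 94179134) and 27.3 at 1 h (94178900 to 94179182), a log2 ratio of -1.09 (-1.42 to -0.78). The 12 h window covered 296 of the 300 promoter bases and the 1 h window 239. Downstream of Mt1, the site at 14.5 kb held 12.0 tags at 12 h, against 15.3 at 1 h (-0.36, -0.73 to 0.01). The sites 9.32 kb after Mt1 and 53.5 kb before Mt2 were in the 1 h list alone, with 15.2 and 13.7 tags.

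Tgm2 had the most sites, with 3 listed at 12 h and 8 at 1 h. Of all protein-coding genes 2.12% had 3 or more 12 h peaks within this distance and 0.123% had 8 or more 1 h peaks. The strongest 1 h sites formed a close pair beyond the span on the side of the higher coordinate, nearer to D630003M21Rik, with 1320 bp between their centres. One of them, 21.7 kb away (chromosome 2, 158167997 to 158168279), held 25.5 tags at 12 h, against 76.7 at 1 h, a log2 ratio of -1.59 (-1.81 to -1.38). The other, 23.1 kb away (158169317 to 158169599), held 108 tags at 1 h and was not listed at 12 h. There, the required fold over untreated cells, taken alone, would have needed 5.30 tags at 12 h. This site could also have failed the caller's tag threshold or its local fold, for which no 12 h value is given. Its 1 h fold over the surrounding region, which contains its neighbour, was 19.6.

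Inside Tgm2 the site at 158121735 to 158122017 held 23.9 tags at 12 h, against 47.7 at 1 h (-0.99, -1.23 to -0.76). The other sites inside the gene held 21.3 and 20.2 tags and were in the 1 h list alone. The site 44.9 kb away, inside D630003M21Rik, held 15.7 tags at 12 h, against 21.5 at 1 h (-0.46, -0.78 to -0.15). The weakest sites, with 11.6 tags 23.0 kb before the span and 9.94 tags 31.6 kb after it, were not listed at 12 h.

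Over all 16 shared sites, 15 held fewer normalised tags at 12 h than at 1 h and 1 held more, where 77.2% of all shared sites held fewer and 22.8% more. This direction depends on scaling by all tags: relative to the median of all shared sites 10 of the 16 lay below 0, and scaled by the tags in listed peaks 5 did. The counting interval lay below 0 at 12 sites (61.8% of all shared sites), above 0 at 1 (11.5%) and across 0 at 3, which were those of Glul, 57.8 kb upstream of Pdk4 and 14.5 kb after Mt1. At least 2-fold lower were 5 of 16 sites, against 24.5% of all shared sites, and at least 2-fold higher were 0, against 1.44%. These 5 were the Ampd3 site 51.9 kb upstream, the Pdk4 site 13.8 kb upstream, the sites upstream of Mt2 and over the Mt1 start, and the Tgm2 site 21.7 kb away. The median log2 ratio was -0.85 over the 16 sites and -0.49 over all 2436 shared sites. These sets differ in strength, with a 1 h median of 46.7 tags at the 16 sites and 29.4 at all shared sites. They were not matched for it, so none of these shares or medians compares sites of equal 1 h strength. Whether the member sites differ from others of their strength was not tested. Per base of the window, 8 of 16 were at least 2-fold lower. At least 1.5-fold lower were 10 of 16, against 44.7% of all shared sites, and at least 3-fold lower 2, against 7.47%.

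**Figure D3:**
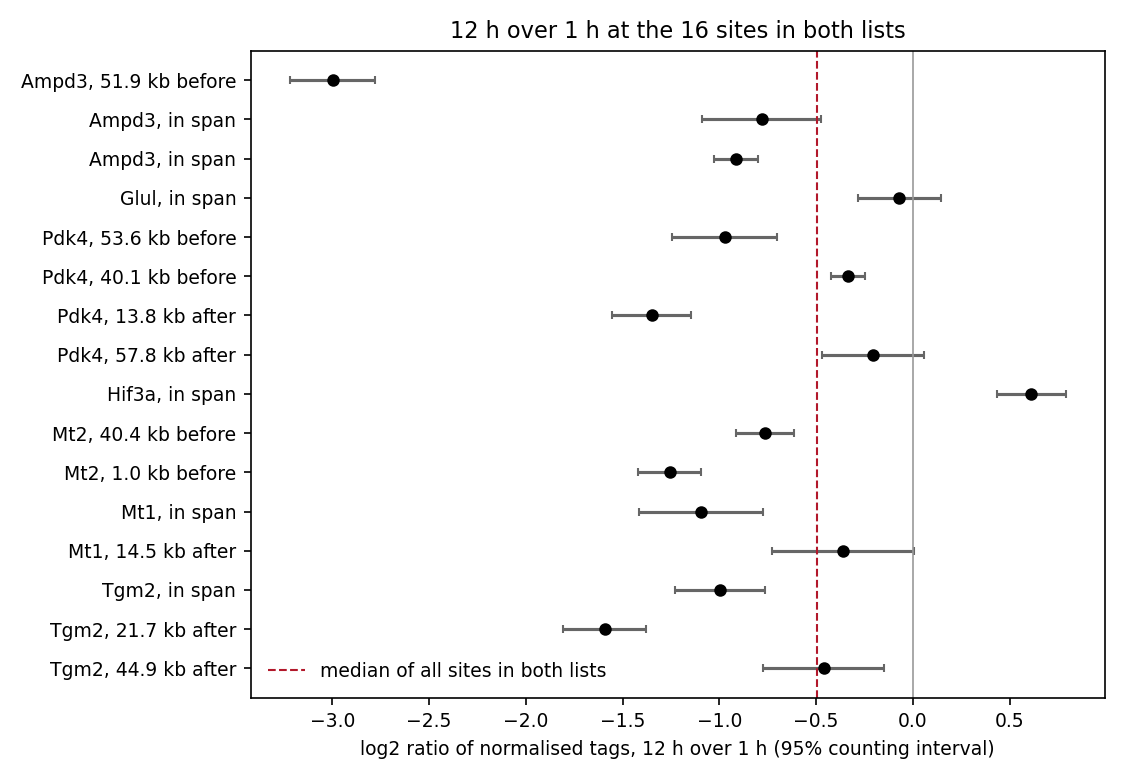
Log2 ratio of normalised tags, 12 h over 1 h, at the 16 sites in both lists, with 95% counting intervals; labels as in the plot of tags by site. The dashed line marks the median of all 2436 shared sites, -0.49, and the grey line no difference. The upstream Ampd3 site stands at -3.00 and the Hif3a site at 0.61.

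**Figure D4:**
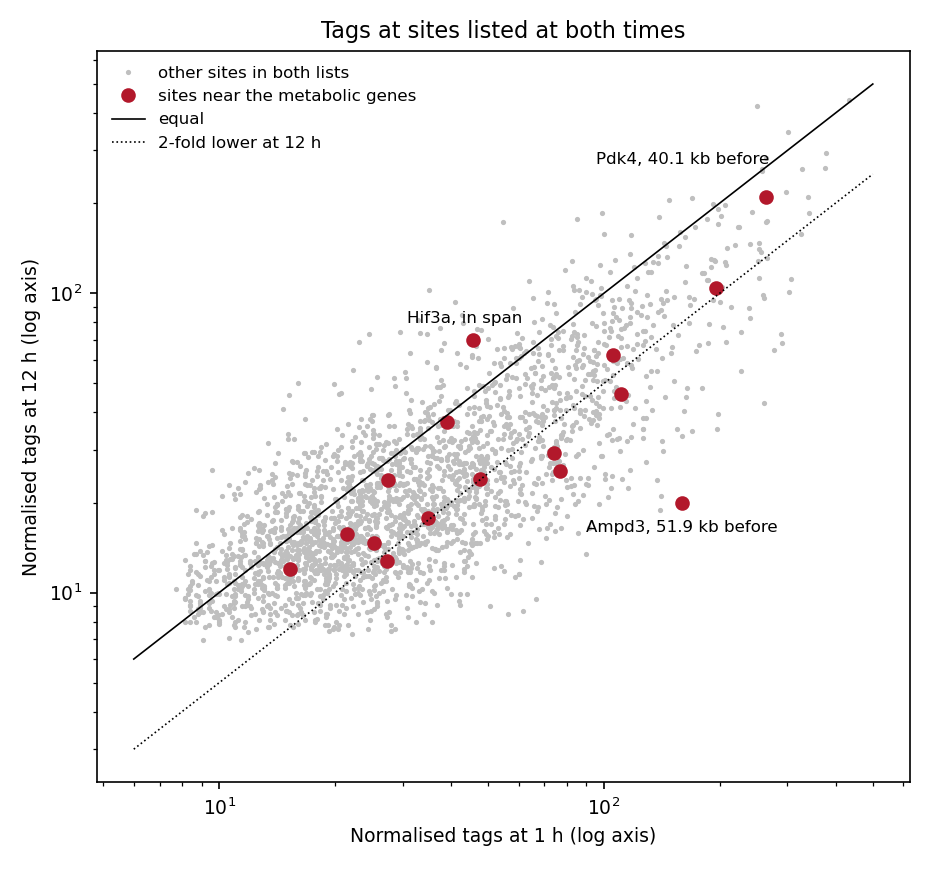
Normalised tags at 12 h against those at 1 h (both log axes) for all sites in both lists (grey) and the 16 member sites (red), with lines for equal tags and for 2-fold fewer at 12 h. The member sites run from 15.3 to 264.5 tags at 1 h, and the upstream Ampd3 site lies farthest below the line of equal tags.

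Of the 13 sites in the 1 h list alone 10 held fewer than 30 tags, as did 91.7% of all 3202 peaks of that kind. Their median was 20.2 tags (9.94 to 108), against a 1 h median of 46.7 (15.3 to 264.5) at the 16 shared sites. Over all peaks these medians were 14.7 and 29.4 tags, so the same order held in the whole list. Their fold over the surrounding 10 kb had a median of 10.6 (6.28 to 19.6), against 19.6 (9.66 to 61.1) at the shared sites, and over all peaks the medians were 9.46 and 17.1. The exceptions above 30 tags were the Ampd3 sites 61.2 and 68.9 kb upstream and the Tgm2 site 23.1 kb away. Strong 1 h sites were mostly listed at 12 h. Of 229 peaks with at least 100 tags at 1 h, a limit chosen after the values were seen, 96.9% were in the 12 h list and 7 were not. Near the 9 genes were 7 such peaks, of which 5 were in the 12 h list. The other 2 were the Ampd3 site 61.2 kb upstream and the Tgm2 site 23.1 kb away, each with a peak of the 12 h list close by. That near the Ampd3 site was centred 1753 bp away. That near the Tgm2 site overlaps the 1 h peak centred 1320 bp away.

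At 1 h, 5 of the 9 genes had 4 or more sites. Ampd3 and the metallothionein genes each had 4 sites at 12 h and 6 at 1 h, and Pdk4 had 4 at 12 h and 5 at 1 h. Of protein-coding genes 0.745% had 4 or more 12 h peaks at this distance, 2.87% had 4 or more 1 h peaks and 0.653% had 6 or more. Around Glul, Hif3a, Suox and Angptl4 a single site stood alone. Beyond the Hif3a site the next 12 h peak was 586 kb from the gene, nearest to Zc3h4. The focus ratio, which the caller gives as the fraction of tags close to the peak centre in the expected orientation, had a median of 0.837 at 12 h and 0.832 at 1 h at member sites, near the 0.838 and 0.841 of all peaks. Just outside the distance limit, a site 106 kb from Suox and nearest to Mmp19 held 41.5 tags at 12 h, against 120.4 at 1 h, and one 116 kb from Ampd3 held 17.4 at 1 h. The farthest site inside the limit was that of Ampd3 at 86.6 kb.

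Other genes of the same pathways were counted in the same way, with no test of their difference from the 9 members. Of 110 related genes in 8 lists, 40 had a 12 h peak within 100 kb (36.4%) and 52 a 1 h peak (47.3%), where 22.3% and 37.4% of all protein-coding genes did. These counts include Adm, Mt3 and Mt4, whose strongest peaks are member sites, and Slc38a1 and Slc38a2, which share their only 1 h peak. In the lists of purine and AMP metabolism, the hypoxia-inducible factor pathway and pyruvate dehydrogenase with gluconeogenesis, 8 of 15, 7 of 13 and 7 of 15 genes had a peak at 12 h, and as many at 1 h. Genes of these lists with a peak at both times numbered 7, 7 and 6. The list of lipoprotein lipase and fatty acid handling had 5 of 17 at 12 h and 11 of 17 at 1 h, that of glutamine and amino acid nitrogen 4 and 7 of 15, that of sulphur amino acids and the molybdenum cofactor 4 and 5 of 12, and that of metallothionein and metal transport 5 and 6 of 14. Among 9 other genes of the transglutaminase list 0 had a 12 h peak and 1 a 1 h peak, which was F13a1, a clotting factor subunit, with 13.7 tags.

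Several of these genes had strong sites. The one with most 1 h tags lay 72.0 kb from Xdh, xanthine dehydrogenase of purine breakdown, and nearest to Ehd3, with 197 tags at 12 h, against 206.9 at 1 h (-0.07, -0.16 to 0.02). Sites near Csad, an enzyme of taurine synthesis, and Mocs1, of molybdenum cofactor synthesis, held 111 and 37.2 tags at 12 h and 186.5 and 84.4 at 1 h. The Csad site lay 74.4 kb away and nearest to Tns2. Fth1, the ferritin heavy chain, held 78.3 tags at 12 h, against 134 at 1 h at 1.52 kb from its span. Pdp1, the phosphatase that opposes the pyruvate dehydrogenase kinases, held 30 tags at 12 h, against 88.5 at 1 h (-1.56, -1.76 to -1.37) at 6.31 kb, and Pcx, pyruvate carboxylase, 16.1 and 48.7 at 17.3 kb.

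Plin2, a coat protein of lipid droplets, held 52.5 tags at 12 h, against 76.4 at 1 h at 42.6 kb, and Pnpla2, adipose triglyceride lipase, 23.7 and 57.9 at 17.9 kb. Bnip3, a hypoxia-induced mitochondrial protein, held 34.6 tags at 12 h, against 50.8 at 1 h at 9.98 kb. The amino acid transporter gene Slc7a5 held 14.0 tags at 12 h, against 29.9 at 1 h inside its span, and Got1, the cytosolic aspartate aminotransferase, 11.3 and 29.2 within 1 kb of its span. The sites given for Mocs1, Pcx, Plin2 and Pnpla2 lay nearest to other genes, Daam2, 2010003K11Rik, Dennd4c and Tspan4. For Adm, Mt3 and Mt4 the strongest 1 h sites were those of Ampd3 and of Mt2 given above. Genes with a peak at 12 h alone were Pnp with 12.9 tags, Fbp1 with 10.1 and Glud1 with 8.29. These are purine nucleoside phosphorylase, fructose bisphosphatase and glutamate dehydrogenase. The peaks given for them lay 15.0, 63.0 and 36.3 kb from their spans and nearest to other genes, Pnp2, Gm5141 and Shld2.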

How the data were processed

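Peak lists of 3 GR ChIP-seq libraries were used. The submitters' processing notes name bcl2fastq 2.17, Bowtie2 2.2.6, HOMER (version not given in the sources used here) and the build mm10. Per the file headers, HOMER findPeaks was run on each library. A peak needed 6 times the control tags and 6 times the local density (10 kb), a Poisson p-value of 0.0001, a tag threshold of 75 and a false discovery rate of 0.001. The control was the untreated library for both treated lists and an input for the untreated list. The input is not analysed here; the header names it as untreated (NT), but its label as treated with corticosterone. Windows were 282 bp at 1 h and 302 bp at 12 h.

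The normalised tag count is a signal that the authors scaled to 10000000 tags. Deposited folds are ratios by the caller, and the deposited focus ratio is a fraction. The deposited score and p-values were not compared. Untreated tags in treated windows are whole, except that the caller wrote 0.5 for 0. Treated tags, deposited scaled to the untreated library, were scaled back and gave whole tags, within 0.1, for 100% of peaks.

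Peaks were assigned to RefSeq gene spans (GRCm38.p6, the assembly of mm10) and lists paired by overlap of at least 1 bp, with Python 3.11.15, pandas 2.3.3 and scipy 1.17.1. A site counted as called at a fold of 2. The interval was tested on simulated tags. No source used here names molecular identifiers, so intervals cover counting error only. No genome sequence was used beyond RefSeq promoters. Every member site is named; of each related list, the 2 genes with most 1 h tags and those listed at 12 h alone are named, except 1 that is not reported here. The members and lists were chosen with earlier results of these data known. Alternatives changed the distance, the fold minimum, the pairing and the scaling.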

Additional observations from a re-analysis of the deposited data

How the results depend on the processing

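Counts of sites followed the distance chosen. Within 25 kb of a gene 10 sites were listed at 12 h and 17 at 1 h, and within 10 kb 7 and 12. At a fold of at least 12 over the untreated library 10 sites remained at 12 h and 9 in both lists, against 17 and 16; at 1 h 20 of 29 did. Pairing by centres within 100 bp gave 15 shared sites, and by an overlap of at least 0.5 of a window 16. Members with a site numbered 6 to 7 at 12 h and 8 to 9 at 1 h under each distance and when only the nearest gene counted. No distance above 100 kb was tried, and a 12 h peak lay 106 kb from Suox. The median log2 ratio of the 16 sites was -0.95 per base of the window, -0.35 relative to the median of all shared sites and 0.20 scaled by the tags in listed peaks (0.811% of the library at 12 h and 1.68% at 1 h), so its sign depends on the scaling. Per base of the window 8 sites were at least 2-fold lower at 12 h, relative to the median of all shared sites 2 were, and with limits of 1.5-fold and 3-fold 10 and 2 were. Scaling shifts every site alike and leaves their order unchanged. The cause of these shifts was not tested. No paired analysis was possible because each condition has 1 library, and the spread between cultures is unknown.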
